A study of Mus musculus with 2 samples.

Results

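The levels of 9 genes of glucocorticoid signalling were measured in single-cell RNA libraries of the mouse heart. They were 2 genes that encode the steroid receptors (Nr3c1 and Nr3c2), 1 that encodes an enzyme that activates the hormone (Hsd11b1), and 6 that glucocorticoids are known to induce (Fkbp5, Zbtb16, Tsc22d3, Klf9, Klf15 and Sgk1). They were chosen by symbol, as a list, among the 55357 genes of the deposited tables. The list was made with the levels of these genes in both libraries already known. The differences between the libraries are therefore given as descriptions, with no test.

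Glucocorticoids, corticosterone in the mouse, cross the cell membrane and bind the glucocorticoid receptor, which is held in the cytoplasm by a chaperone complex. The bound receptor moves to the nucleus, where it binds DNA as a pair at short inverted repeats and raises or lowers transcription of its target genes. The mineralocorticoid receptor binds the same hormone, and in most cells of the heart it is thought to be occupied by glucocorticoid rather than by aldosterone.

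Data came from 2 10x Genomics 3-prime single-cell RNA libraries of C57BL/6 mouse hearts. In the library labelled TAC, the aortic arch of male mice had been ligated at 8 weeks of age (transverse aortic constriction, a model of pressure overload) and the mice were kept for 6 weeks. In the library labelled Sham, the same operation was done without tying the aorta by its own label, while the description of the series speaks of uninjured mice; its sex and age are not given there. Each library pooled the cells of 3 to 5 hearts, so each group is 1 library, and the hearts within it cannot be separated. The mice carried no transgene or drug by the labels.

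Unique molecular identifiers (UMIs, counted RNA molecules) came to 28146691 over 9935 barcodes in Sham and to 29108986 over 9932 in TAC. After filters, 9475 Sham and 9452 TAC cells were kept; 32 barcode sequences occurred in both matrices. Clusters were named from marker genes, and the 5 large types were cardiomyocytes (2509 Sham and 2396 TAC cells), fibroblasts (2291 and 2127), endothelial cells (1905 and 2251), macrophages (1412 and 1348) and pericytes (1065 and 1043). Lymphatic endothelial cells (85 and 110), T cells (37 and 57), B cells (36 and 36), smooth muscle cells (50 and 43), epicardial or mesothelial cells (20 and 26) and Schwann cells (17 and 15) were small, and 48 Sham cells stayed unnamed. In every named type at least 5 markers of its list were seen, in both libraries.

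The TAC label was checked in cardiomyocytes with 6 genes, which were added after their values were seen. Of these, 3 that pressure overload is known to raise were lower in the library labelled TAC, so Sham and TAC below name labels only. The ratio of TAC to Sham was 0.757 for Nppa (95% interval 0.611 to 0.937) and 0.773 for Nppb (0.676 to 0.884), the natriuretic peptide genes, and 0.355 (0.294 to 0.426) for Acta1, the skeletal actin of the stressed heart. Myh7, the slow myosin heavy chain, which the authors count as a hypertrophic factor, was higher in TAC at 1.36 (1.32 to 1.40). Ankrd1 stood at 1.01 (0.969 to 1.05) and Atp2a2, the calcium pump of the sarcoplasmic reticulum, at 1.25 (1.23 to 1.27). Both libraries also carried free RNA: the summed level of the 8 cardiomyocyte markers in the other large types was 3.18% to 6.18% of that in cardiomyocytes in Sham and 3.00% to 5.31% in TAC, 33.4% in Sham T cells and 21.7% in TAC B cells.

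All levels below are UMIs of the gene per 1000000 UMIs of the cell type, summed over its cells, with exact Poisson 95% intervals. Ratios of TAC to Sham carry exact conditional binomial 95% intervals. With 1 library a group there was no replicate check, and the intervals cover counting error within these libraries only. Levels are compared between cell types and libraries for 1 gene at a time, never between genes.

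The 9 genes are protein-coding and lie on 9 chromosomes. In GENCODE M21, on build GRCm38, Nr3c1 spans chr18:39410545-39519421 (minus strand), Nr3c2 chr8:76899442-77245012 (plus), Hsd11b1 chr1:193221634-193264075 (minus), Fkbp5 chr17:28399094-28517527 (minus) and Zbtb16 chr9:48654297-48836222 (minus). Tsc22d3 spans chrX:140539528-140600659 (minus), Klf9 chr19:23141226-23168134 (plus), Klf15 chr6:90462576-90475238 (plus) and Sgk1 chr10:21882184-21999903 (plus). They range from 12663 bp (Klf15) to 345571 bp (Nr3c2), and exons make up 1.87% of Nr3c2 and 22.0% of Klf15. Whether the authors counted intronic reads is not given in the sources used here. Hsd11b1 lies wholly within Lamb3 on the other strand, which had 510 UMIs in Sham and 451 in TAC. On its own strand Hsd11b1 overlaps Gm38118 over 2222 bp, which had 65 UMIs in Sham and 52 in TAC and could share its reads. Listed transcripts within Fkbp5 are AC154912.1 (antisense), AC154912.3 and AC154912.5 (sense), and the sense ones could share the reads of Fkbp5.

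Of the 45 pairs of gene and large cell type, 42 reached 40 UMIs over both libraries, the minimum for a call: 9 genes in cardiomyocytes, fibroblasts and pericytes, 8 in endothelial cells and 7 in macrophages. At least 2 times lower in TAC were Fkbp5 and Zbtb16 in cardiomyocytes, macrophages and pericytes, Fkbp5, Zbtb16 and Klf15 in endothelial cells, and Zbtb16 in fibroblasts, where Fkbp5 at a ratio of 0.548 lay just outside. Nearest to the limit on the inside was Klf15 in endothelial cells at 0.461, from 31 and 19 UMIs, which stood at 0.657 and was no longer called with no doublets removed. Among all genes tested in the same way, 1.4% were at least 2 times lower in cardiomyocytes, 0.807% in fibroblasts, 1.05% in endothelial cells, 2.12% in macrophages and 1.25% in pericytes. No gene of the 9 with 40 UMIs was at least 2 times higher in TAC in a large type, where the share of all genes was 5.93% in cardiomyocytes, 4.47% in fibroblasts, 3.74% in endothelial cells, 3.38% in macrophages and 2.83% in pericytes. Since the genes were chosen on this contrast, nothing is read from their count. The median over all genes of the log2 ratio lay within 0.04 of 0 in the 5 types.

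**Figure D1:**
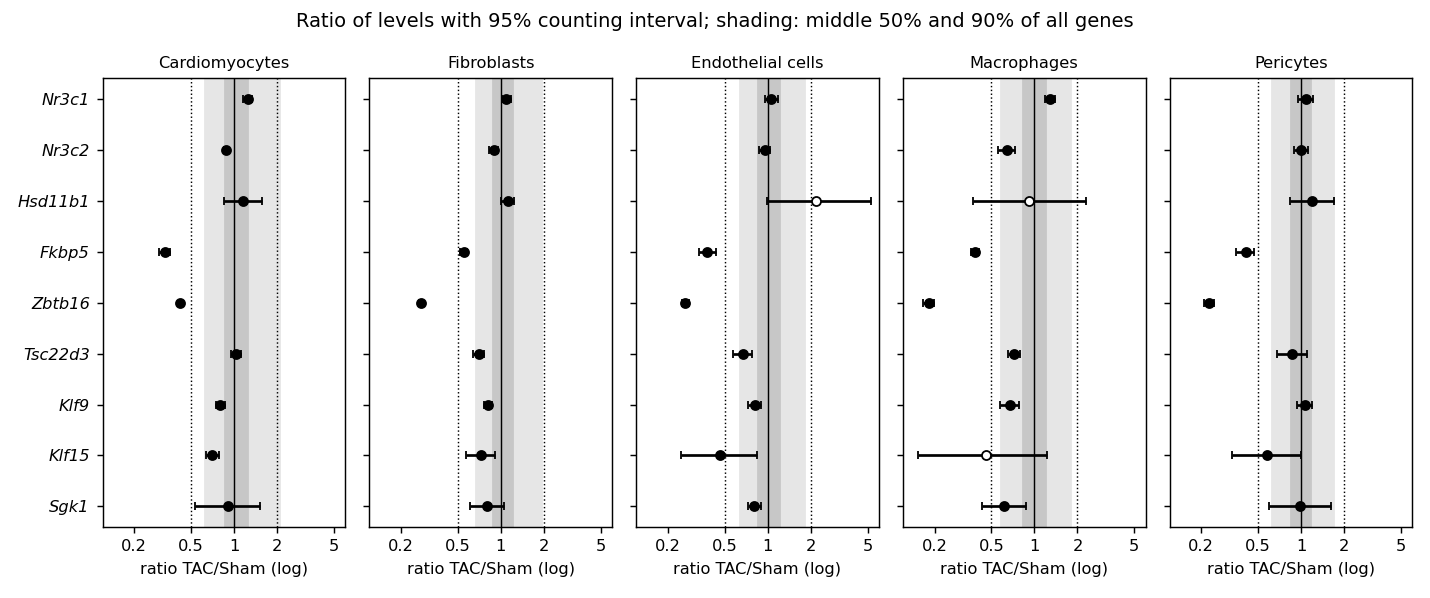
Ratio of the level in TAC to that in Sham (log axis) for the 9 genes in the 5 large cell types, with 95% counting intervals, filled points for genes with at least 40 UMIs and open points for the others. Grey bands hold the middle 50% and 90% of all genes tested, and dotted lines mark 2-fold; Zbtb16 and Fkbp5 lie left of both bands in each type, while Nr3c1 lies at or right of 1.

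Nr3c1, which encodes the glucocorticoid receptor, was seen in every cell type and was lowest in cardiomyocytes among the large types. In cardiomyocytes its level was 112 in Sham (95% interval 106 to 117) and 139 in TAC (132 to 145). In macrophages it was 385 in Sham (360 to 412) and 495 in TAC (468 to 523), the highest of the large types in both libraries. Fibroblasts (273 in Sham, 297 in TAC), endothelial cells (281 and 298) and pericytes (277 and 299) lay between them, and their intervals overlapped one another. T cells had the highest level of all types, 422 in Sham and 574 in TAC, from 21 and 44 UMIs, and overlapped macrophages.

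In no large type did the interval of the Nr3c1 ratio lie below 1. The ratio of TAC to Sham was 1.24 in cardiomyocytes (1.16 to 1.33), 1.28 in macrophages (1.18 to 1.40) and 1.09 in fibroblasts (1.01 to 1.17). In endothelial cells it was 1.06 (0.962 to 1.17) and in pericytes 1.08 (0.956 to 1.22), intervals that include 1. In macrophages thinned to 1000 UMIs, with 401 Sham and 222 TAC cells left out as too shallow, Nr3c1 was found in 29.3% of Sham and 35.9% of TAC cells, against 37.0% and 48.9% without thinning.

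Nr3c2, which encodes the mineralocorticoid receptor, was highest in cardiomyocytes and lowest in macrophages among the large types, the reverse of Nr3c1. Lymphatic endothelial cells had its highest level of all, 1209 in Sham (1055 to 1379) and 1479 in TAC (1334 to 1636), above every other type and outside their intervals. In cardiomyocytes the level was 575 in Sham (562 to 587.5) and 504 in TAC (492 to 517). In macrophages it was 231 in Sham (212 to 252) and 148 in TAC (134 to 164). Cardiomyocytes held 65.4% of the UMIs of Nr3c2 in Sham and 61.2% in TAC, against 29.0% and 28.6% of those of Nr3c1.

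The mineralocorticoid receptor gene was lower in TAC in macrophages, cardiomyocytes and fibroblasts, and the macrophage ratio was farthest from 1. The ratio was 0.640 (0.559 to 0.732) in macrophages, where 761 of 10195 genes had a lower ratio. It was 0.878 (0.849 to 0.907) in cardiomyocytes, 0.893 (0.831 to 0.959) in fibroblasts, 0.954 (0.875 to 1.04) in endothelial cells and 0.998 (0.896 to 1.11) in pericytes. In lymphatic endothelial cells the ratio was 1.22 (1.03 to 1.45), from 221 Sham and 378 TAC UMIs. In macrophages, cardiomyocytes and fibroblasts the interval lay above 1 for Nr3c1 and below 1 for Nr3c2. In fibroblasts the lower end of the Nr3c1 interval lay below the median ratio of all genes there, 1.017.

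Hsd11b1 encodes 11-beta-hydroxysteroid dehydrogenase 1, which regenerates active glucocorticoid from its inert keto form inside the cell. Among the large types it was a fibroblast gene: the level was 125 in Sham (116 to 135) and 139 in TAC (129 to 150), and fibroblasts held 79.0% and 75.4% of its UMIs. Pericytes followed with 32.6 in Sham (24.9 to 42.0) and 39.0 in TAC (30.7 to 48.9). Cardiomyocytes stood at 6.16 in Sham and 7.09 in TAC.

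The enzyme was also found in the few T cells, at 261 in Sham (139 to 447) and 313 in TAC (201 to 466), from 13 and 24 UMIs in 9 of 37 and 16 of 57 cells. After thinning to 1000 UMIs it was found in 5 of 18 Sham and 7 of 40 TAC T cells, against 0.566% and 0.629% of cardiomyocytes. Free fibroblast RNA, taken from the summed fibroblast markers in each type, would give 9.81 and 10.99 in these T cells, and by the highest single marker 23.3 and 16.2. In pericytes it would give 12.3 and 11.7 by the sum, and 42.8 and 33.9 by the highest marker, which is above the Sham level and below the TAC level measured there. In endothelial cells (3.70 in Sham, 8.05 in TAC) and macrophages (4.98 and 4.59) the measured level was below what free fibroblast RNA would give, 9.84 and 11.05 in endothelial cells and 6.62 and 6.84 in macrophages. By the lowest single marker it would give less than measured in both types, so these low levels cannot be told apart from free RNA. No UMI was found in smooth muscle cells, which allows a level of up to 23.6 in Sham and 30.7 in TAC.

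Only in fibroblasts did the interval of the Hsd11b1 ratio exclude 1 among the large types. The ratio was 1.12 (1.003 to 1.24) in fibroblasts, 1.196 (0.840 to 1.71) in pericytes and 1.15 (0.847 to 1.57) in cardiomyocytes. The lower end of the fibroblast interval lay below the median ratio of all genes in fibroblasts, 1.017. In endothelial cells, where 9 and 26 UMIs missed the minimum, it was 2.17 (0.987 to 5.27). Within the fibroblasts the level depended on the cluster. In the joint clustering of both libraries, the fibroblasts led by Lvrn, Gfra1, Rgs17 and Col6a6 had 173 in Sham and 213.5 in TAC, and those led by Gfpt2, Adgrd1, C7 and Pi16 had 62.6 in Sham and 64.7 in TAC. The ratio of TAC to Sham was 1.23 (1.09 to 1.39) in the former and 1.03 (0.818 to 1.31) in the latter.

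**Figure D2:**
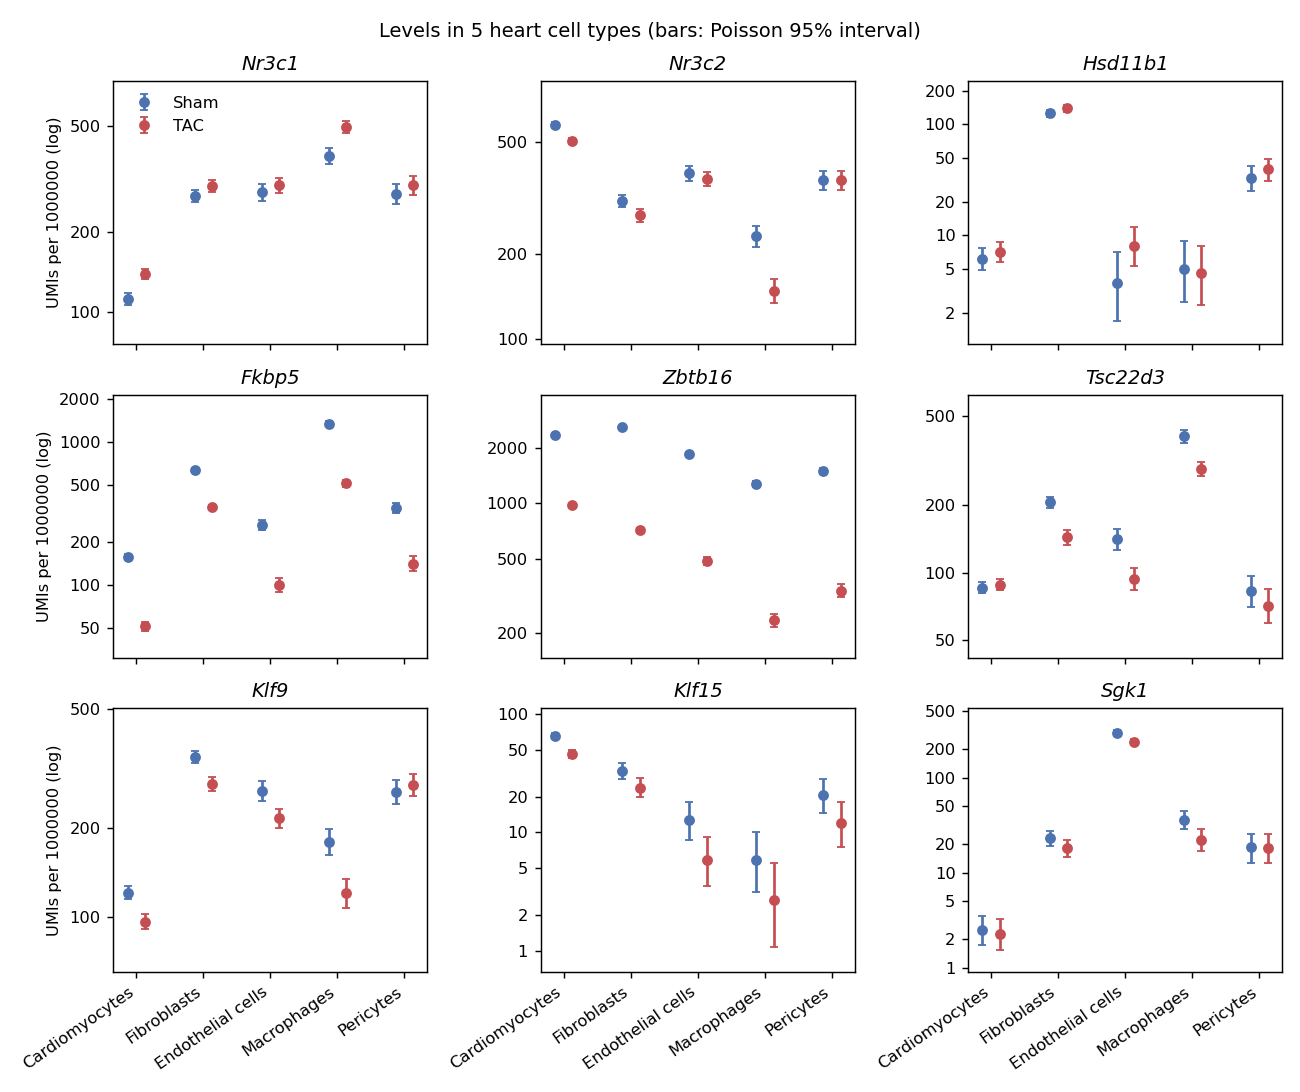
Level of each gene in UMIs per 1000000 (log axis, a separate scale in each panel) in the 5 large cell types, in Sham (blue) and TAC (red), with Poisson 95% intervals as bars. Hsd11b1 stands out in fibroblasts and Sgk1 in endothelial cells, while the red points of Zbtb16 and Fkbp5 lie below the blue ones in each type.

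Zbtb16 encodes a zinc finger transcription repressor (PLZF) that is among the most responsive glucocorticoid-induced genes in many cells. It had the lowest ratio of the 9 genes in 4 of the 5 large types, all but cardiomyocytes, where Fkbp5 was lower still. In fibroblasts its level was 2579 in Sham (2537 to 2622) and 714 in TAC (691 to 737.5). In cardiomyocytes it was 2334 in Sham (2308 to 2360) and 979 in TAC (962 to 996). In endothelial cells it was 1849 in Sham (1795 to 1903) and 489 in TAC (465 to 514).

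Macrophages and pericytes were lower in TAC as well. In macrophages the level was 1278 in Sham (1231 to 1326) and 233 in TAC (215 to 253), and in pericytes it was 1488 in Sham (1433 to 1545) and 338 in TAC (312 to 365). The small types were lower in TAC too: T cells had 984 in Sham and 209 in TAC, smooth muscle cells 1029 and 533, epicardial or mesothelial cells 1737 and 549, lymphatic endothelial cells 766 and 403, and Schwann cells 1305 and 183. B cells, with 10 UMIs in each library, stood at 284 and 195 with overlapping intervals. Free RNA was not subtracted in the small types, and its amount differed between the libraries. Summed cardiomyocyte markers stood at 33.4% of their cardiomyocyte level in Sham T cells and at 5.14% in TAC T cells. Summed fibroblast markers stood at 57.0% of their fibroblast level in Sham Schwann cells and at 23.4% in TAC Schwann cells. The part of free RNA in the differences of the small types was not tested.

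As a fold, the Sham level of Zbtb16 was 2.38 times the TAC level in cardiomyocytes (2.34 to 2.43), 3.61 times in fibroblasts (3.48 to 3.75), 3.78 times in endothelial cells (3.57 to 4.01), 4.41 times in pericytes (4.04 to 4.81) and 5.48 times in macrophages (5.02 to 5.99). The interval of cardiomyocytes did not overlap those of the other large types. Few genes had a lower ratio of TAC to Sham, 5 in fibroblasts, endothelial cells and macrophages each, 3 in pericytes, and 86 in cardiomyocytes. The order of the cell types differed between the libraries, with fibroblasts highest in Sham and cardiomyocytes highest in TAC.

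Measures of RNA make-up also differed between the libraries. The share of UMIs from Malat1, a nuclear RNA, was higher in TAC in each large type, 13.1% in Sham and 16.2% in TAC in cardiomyocytes and 4.56% and 4.69% in macrophages. Neat1, another nuclear RNA, was lower in TAC in each, at 7551 and 3752 in cardiomyocytes and 2918 and 2352 in macrophages. The mitochondrial share in cardiomyocytes was 0.260% and 0.145%, and the share from ribosomal protein genes was 0.122% and 0.128%. The mitochondrial share was lower in TAC in 4 of the 5 types, and in fibroblasts it was 1.01% and 1.13%. Their part in the differences of Zbtb16 and the other genes was not tested. With 1 library a group, the library and its label cannot be told apart. The authors describe hearts taken apart into single cells. Whether the barcodes held whole cells or nuclei was not tested, so the levels cannot be read as those of whole-cell RNA.

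Free cardiomyocyte RNA would give a part of these levels that depends on the marker used to scale it. Scaled by the 8 cardiomyocyte markers summed, it would give 2.87% to 8.48% of the Zbtb16 level in the other large types of Sham, and 4.11% to 15.3% in those of TAC. With that amount subtracted, the ratio of TAC to Sham was 0.273 in fibroblasts, 0.256 in endothelial cells, 0.169 in macrophages and 0.216 in pericytes, against 0.277, 0.265, 0.183 and 0.227 without. Scaled by the single marker with the highest share, it would give 13.9% to 37.6% of the Sham levels and 19.9% to 77.4% of the TAC levels, the most in macrophages. The ratio was then 0.257 in fibroblasts, 0.206 in endothelial cells, 0.0660 in macrophages and 0.180 in pericytes. Free RNA of fibroblasts, the type with the highest Sham level of Zbtb16, was not subtracted. Summed fibroblast markers stood at 7.88% of their fibroblast level in Sham endothelial cells and 7.92% in TAC ones. In pericytes they stood at 9.82% in Sham and 8.39% in TAC, and in macrophages at 5.30% and 4.91%.

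The difference in Zbtb16 ran through the whole distribution of cells. After thinning each cell to 1000 UMIs, no Zbtb16 UMI was found in 14.3% of Sham and 40.9% of TAC cardiomyocytes, and 3 or more UMIs were found in 42.6% and 10.3%. In macrophages the cells without a UMI were 38.2% in Sham and 80.3% in TAC, and the cells with 3 or more were 18.4% and 0.622%. The cell with the most Zbtb16 UMIs held at most 2.62% of those of its type and library, in TAC macrophages, so no single cell set a level.

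Fkbp5 encodes FKBP51, a co-chaperone of the receptor complex that lowers hormone binding and is itself induced by the hormone. It was highest in macrophages in both libraries. There its level was 1342 in Sham (1295 to 1392) and 516 in TAC (489 to 544). In fibroblasts it was 637 in Sham (616 to 659) and 349.5 in TAC (334 to 366). In cardiomyocytes, the lowest large type, it was 158 in Sham (152 to 165) and 51.7 in TAC (47.9 to 55.7).

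Every large type had less Fkbp5 in TAC, and the fibroblast ratio was nearest to 1. The ratio was 0.326 (0.299 to 0.356) in cardiomyocytes, 0.379 (0.331 to 0.434) in endothelial cells, 0.384 (0.360 to 0.410) in macrophages, 0.408 (0.352 to 0.471) in pericytes and 0.548 (0.518 to 0.581) in fibroblasts. The order of the types by this ratio was not that of Zbtb16, for which cardiomyocytes had the ratio nearest to 1. The sense transcripts within the gene, which could share its reads, were lower in TAC too: AC154912.3 had 1274 UMIs in Sham and 548 in TAC, and AC154912.5 had 71 and 23. The antisense AC154912.1 had 303 and 293. In thinned macrophages 31.6% of Sham and 62.8% of TAC cells had no Fkbp5 UMI.

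**Figure D3:**
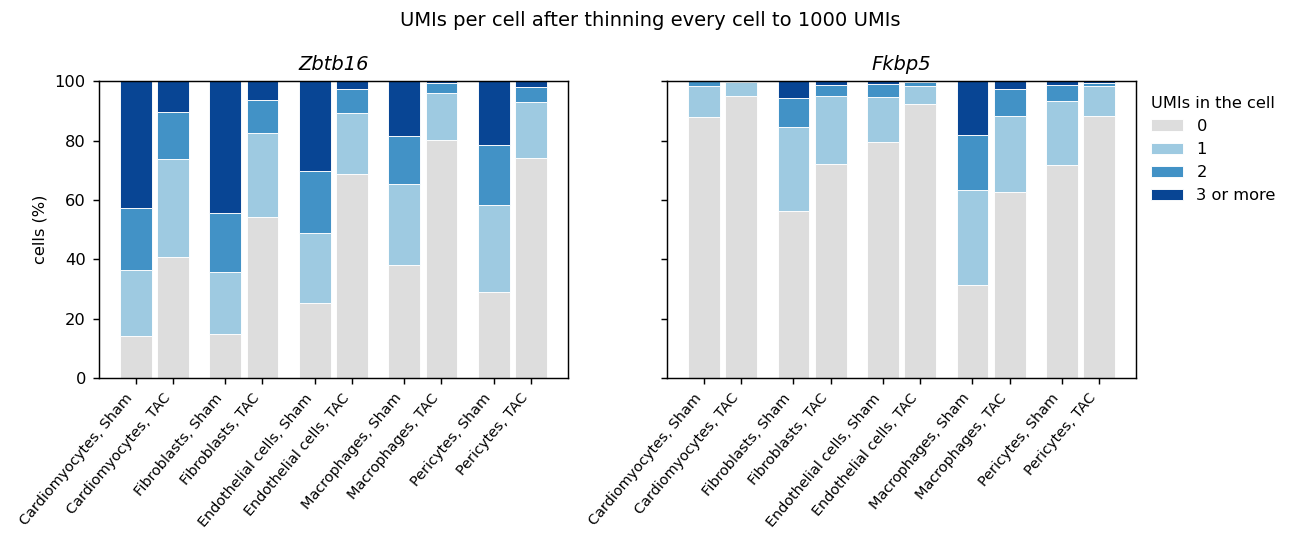
Share of cells (%) with 0, 1, 2 and 3 or more UMIs of Zbtb16 (left) and Fkbp5 (right), after thinning every cell to 1000 UMIs, in the 5 large types of Sham and TAC. The grey share of cells without a Zbtb16 UMI was 14.3% in Sham and 40.9% in TAC cardiomyocytes, and it was larger in TAC in each type, for Fkbp5 as well.

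Tsc22d3 encodes GILZ, an anti-inflammatory leucine zipper protein induced by glucocorticoids in leucocytes. Its level in macrophages was 405 in Sham (379 to 432) and 290.3 in TAC (270.0 to 312), the highest of the large types in both libraries. In fibroblasts it was 206 in Sham (194 to 218) and 143 in TAC (133 to 154), and in endothelial cells 141 (126 to 156) and 94.1 (83.8 to 105). In cardiomyocytes it was 85.9 in Sham (81.0 to 91.0) and 88.4 in TAC (83.3 to 93.6), intervals that overlap.

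Tsc22d3 was lower in TAC in 3 of the 5 large types. The ratio was 0.669 (0.571 to 0.783) in endothelial cells, 0.697 (0.635 to 0.766) in fibroblasts and 0.717 (0.650 to 0.791) in macrophages. It was 1.03 (0.948 to 1.12) in cardiomyocytes and 0.862 (0.679 to 1.09) in pericytes. The interval of cardiomyocytes did not overlap those of fibroblasts, endothelial cells and macrophages.

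Klf9 and Klf15 encode Kruppel-like transcription factors, both direct targets of the receptor, and Klf15 is known as a regulator of heart metabolism. Klf9 was highest in fibroblasts, at 345 in Sham (330 to 361) and 279.9 in TAC (266 to 295), and lowest of the large types in cardiomyocytes, at 121 (115 to 127) and 96.9 (91.6 to 102). Its ratio was 0.8002 (0.743 to 0.862) in cardiomyocytes, 0.811 in fibroblasts (0.757 to 0.869) and endothelial cells (0.727 to 0.904), and 0.670 (0.576 to 0.779) in macrophages. In pericytes the level was 264 in Sham and 278 in TAC, level with fibroblasts in TAC, and the ratio was 1.06 (0.931 to 1.196).

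Klf15 was sparse and was highest in cardiomyocytes among the large types. There its level was 65.0 in Sham (60.8 to 69.4) and 45.7 in TAC (42.1 to 49.5), a ratio of 0.703 (0.632 to 0.7804), and cardiomyocytes held 76.1% and 76.5% of its UMIs. In fibroblasts it was 33.1 in Sham and 23.9 in TAC, a ratio of 0.722 (0.569 to 0.912). In pericytes 38 and 23 UMIs gave 0.579 (0.329 to 0.997). In endothelial cells the ratio of 0.461 (0.246 to 0.843) came from 31 and 19 UMIs, and free cardiomyocyte RNA would give 31.5% of that level in Sham and 41.3% in TAC by the summed markers, and more than the whole level by the highest marker. With no doublets removed the endothelial ratio was 0.657. In macrophages 13 and 7 UMIs were found, and free cardiomyocyte RNA would give 51.3% and 62.3% of the level.

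Sgk1 encodes serum- and glucocorticoid-regulated kinase 1, which acts on ion channels and transporters. It was an endothelial gene here: the level in endothelial cells was 295 in Sham (274 to 318) and 239 in TAC (222 to 256), above every other type and outside their intervals, and endothelial cells held 69.8% and 76.0% of its UMIs. In macrophages it was 36.2 in Sham (28.7 to 45.1) and 22.2 in TAC (16.8 to 28.7). In cardiomyocytes it was 2.52 in Sham and 2.29 in TAC, from 34 and 30 UMIs.

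Sgk1 was a little lower in TAC in endothelial cells and macrophages. The ratio was 0.808 (0.729 to 0.896) in endothelial cells and 0.612 (0.429 to 0.870) in macrophages. In fibroblasts it was 0.796 (0.603 to 1.05) and in pericytes 0.985 (0.596 to 1.63), intervals that include 1. Among the endothelial clusters the level varied: those led by Btnl9, Ablim3, Gm12002 and Mcf2l had 385 in Sham and 358 in TAC, those led by Lhx6, Samd5, Rasa4 and Vegfc 239 and 203, and those led by Tmem108, Nrg1, Cdh11 and Npr3 63.1 and 42.7. In the same order the ratios were 0.928 (0.820 to 1.05), 0.847 (0.681 to 1.06) and 0.676 (0.370 to 1.25), and each interval includes 1. These clusters held 1210 Sham and 1169 TAC cells, 436 and 669, and 193 and 299. The part of this shift in cluster sizes in the endothelial ratio of 0.808 was not tested.

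Promoter windows of 7 of the 9 genes were searched for the sequence that the receptor is known to bind. RefSeq windows on GRCm38.p6, from 250 bases before to 50 after each transcript start, were held for these 7 genes, with 14 windows in all. Nr3c1 and Zbtb16 had no window and were not searched. The full site searched was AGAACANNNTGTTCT, in which the single site AGAACA is followed by 3 bases and its reverse complement TGTTCT, so that the site reads the same on both strands. It was found in 3 of 32851 windows (0.00913%), of the genes Acnat2, Gm35041 and Sgk1. A single site on either strand, which every full site contains, was found in 19.0% of windows, and in 4 of the 14 windows of the 7 genes, all of Sgk1 or Tsc22d3.

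The Sgk1 stretch is shown because it holds the only full site among the windows of the 7 genes searched. The site starts 189 bases before the transcript start at the window chr10:21993640-21993939 (GRCm38.p6, plus strand), and the bases chr10:21993671-21993745 are printed 5′ to 3′ with the full site in capitals.
Sgk1: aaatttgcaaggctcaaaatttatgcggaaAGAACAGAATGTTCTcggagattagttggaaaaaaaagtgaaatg
Sgk1 has 6 windows in the table and the other 5 held no full site. This match of letters is a description of the reference sequence. Only exact matches within these windows were searched, and the bearing of the site on the level of Sgk1 was not tested.

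Within clusters that held at least 100 cells of each library, the same directions were seen for Zbtb16 and Fkbp5. Both libraries were clustered together without the 9 genes, and 10 such clusters were found. The ratio of Zbtb16 ran from 0.157 in macrophages led by Vsig4, F13a1, Gm49144 and Ccl6 to 0.434 in cardiomyocytes led by Pdzrn4, Gm12381, Fgf14 and Gm24474, and that of Fkbp5 from 0.284 to 0.577. Nr3c1 had a ratio above 1 in 10 of 10 clusters, from 1.01 to 1.31, with the interval above 1 in 6 of them. Nr3c2 and Klf15 were below 1 in 10 of 10, with the interval below 1 in 5 each. The level of Nr3c2 in macrophages was lower in TAC in both of their clusters, at ratios of 0.691 (0.576 to 0.830) and 0.560 (0.453 to 0.689).

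**Figure D4:**
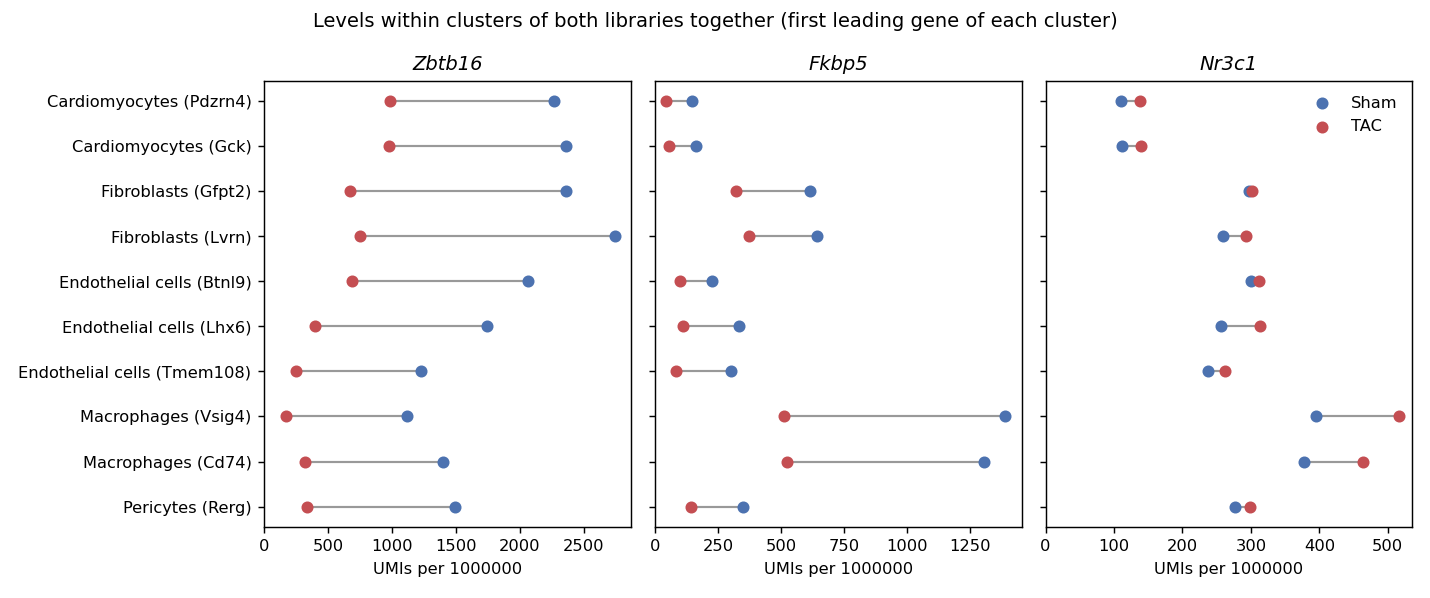
Level of Zbtb16, Fkbp5 and Nr3c1 in UMIs per 1000000 in Sham (blue) and TAC (red), within the 10 clusters of both libraries together, each named by its type and its first leading gene. In each row the red point lies left of the blue one for Zbtb16 and Fkbp5, and right of it for Nr3c1.

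Summed over all cells, which weights cardiomyocytes most, the level of Zbtb16 was 2160 in Sham and 736 in TAC and that of Fkbp5 389 and 171. The ratio over all cells was 0.341 (0.335 to 0.346) for Zbtb16, 0.440 (0.425 to 0.456) for Fkbp5, 0.662 (0.604 to 0.726) for Klf15, 0.826 (0.793 to 0.860) for Klf9 and 0.827 (0.788 to 0.867) for Tsc22d3. It was 0.889 (0.866 to 0.913) for Nr3c2, 0.961 (0.880 to 1.05) for Sgk1, 1.09 (0.989 to 1.19) for Hsd11b1 and 1.197 (1.15 to 1.24) for Nr3c1. Ratios over all cells also move with the share of each cell type. Endothelial cells, which held most UMIs of Sgk1, were 20.1% of Sham and 23.8% of TAC cells. Within them the ratio of Sgk1 was farther below 1.

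The proteins that hold, fold or assist the receptor were next compared. All 14 genes of this list passed the minimum in each large type, and none was at least 2 times higher or lower. Of all genes, 0.807% to 2.12% were lower by this fold and 2.83% to 5.93% higher, by type. The median log2 ratio of the list lay between 0.00 and 0.13, where the median of all genes lay within 0.04 of 0. Hsp90aa1, an Hsp90 chaperone, had a ratio of 0.628 (0.530 to 0.743) in cardiomyocytes, and Stip1, which links Hsp70 to Hsp90, had 1.47 (1.26 to 1.71). In macrophages Hsp90ab1 had 1.85 (1.44 to 2.38) and Stip1 1.56 (1.16 to 2.11). Fkbp4, the FKBP52 partner that competes with FKBP51 for the receptor complex, stood at 1.36 (1.18 to 1.56) in cardiomyocytes, where Fkbp5 stood at 0.326.

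The genes of steroid supply were mostly too sparse, and 3 of 9 passed the minimum in cardiomyocytes, 2 in fibroblasts and endothelial cells, and 1 in macrophages and pericytes. H6pd, which makes the cofactor of the Hsd11b1 enzyme, had a ratio of 1.10 (0.889 to 1.37) in fibroblasts and 0.734 (0.604 to 0.891) in cardiomyocytes. Star, whose protein brings cholesterol into mitochondria, was at least 2 times higher in TAC fibroblasts, from 30 and 58 UMIs, at 2.03 (1.28 to 3.26). In endothelial cells, from 10 and 40 UMIs, it was at 3.01 (1.48 to 6.75). Of all genes, 4.47% in fibroblasts and 3.74% in endothelial cells were higher by this fold. The Cyp11 genes of steroid synthesis on this list had 0 to 4 UMIs each in a large type of a library. Abcb1a, which encodes an export pump, was counted in endothelial cells at 187 in Sham and 180.5 in TAC, a ratio of 0.966 (0.853 to 1.09).

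A wider list of 40 genes that glucocorticoids are known to induce was lower in TAC at its median in each large type. The list was written with earlier results of these libraries known, so it is not independent evidence of the direction. At least 2 times lower were 6 of 33 that passed in cardiomyocytes, 6 of 35 in fibroblasts, 7 of 32 in endothelial cells, 7 of 30 in macrophages and 4 of 27 in pericytes. Of all genes tested, 1.4%, 0.807%, 1.05%, 2.12% and 1.25% were lower by this fold in these types, in the same order. Some levels of the listed genes outside cardiomyocytes were close to free cardiomyocyte RNA by the summed markers. In endothelial cells it would give 68.8% of the Pdk4 level in Sham and 97.8% in TAC, 77.9% and 91.6% of the Plin4 level, and 64.6% and 93.3% of the Trim63 level. In pericytes it would give 69.3% and 94.2% of the Plin4 level. The part of free RNA in these counts was not tested. At least 2 times higher was Errfi1 in macrophages, with 2.29 (1.59 to 3.36), and no other gene of the list in a large type. The share of all genes higher by this fold ran from 2.83% in pericytes to 5.93% in cardiomyocytes. The median log2 ratio of the listed genes that passed was -0.45 in cardiomyocytes, -0.27 in fibroblasts, -0.37 in endothelial cells, -0.26 in macrophages and -0.57 in pericytes. The median of all genes lay within 0.04 of 0 in each type.

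Ptgds, a prostaglandin D synthase, and Arrdc2, an arrestin-like protein, had the lowest ratios of the list in cardiomyocytes. Ptgds had 489 in Sham and 73.9 in TAC, a ratio of 0.151 (0.141 to 0.162), and Arrdc2 had 104 and 29.5, a ratio of 0.285 (0.254 to 0.319). In fibroblasts Arrdc2 had 0.441 (0.327 to 0.591), Hif3a, a hypoxia-inducible factor subunit, 0.451 (0.303 to 0.659), and Pdk4, an inhibitor of glucose oxidation, 0.459 (0.369 to 0.569). In endothelial cells Cd163, a haemoglobin scavenger receptor of macrophages, had 0.334 (0.173 to 0.618), from 36 and 16 UMIs, at levels of 14.8 and 4.95 against 1365 and 937 in macrophages, and Arrdc2 0.346 (0.215 to 0.546). In macrophages Hif3a had 0.203 (0.102 to 0.378), from 54 and 13 UMIs. The 4 lower in pericytes were Ptgds, Plin4, Slc10a6 and Hif3a, with 32 to 101 UMIs each in Sham. In the other 4 large types, free cardiomyocyte RNA would give 33.4% to 60.4% of the Ptgds level by the summed markers, and more than the whole level by the highest single marker. In Sham macrophages it would give 89.1% of the Pdk4 level and 62.4% of the Plin4 level, and in TAC macrophages more than the levels of both.

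**Figure D5:**
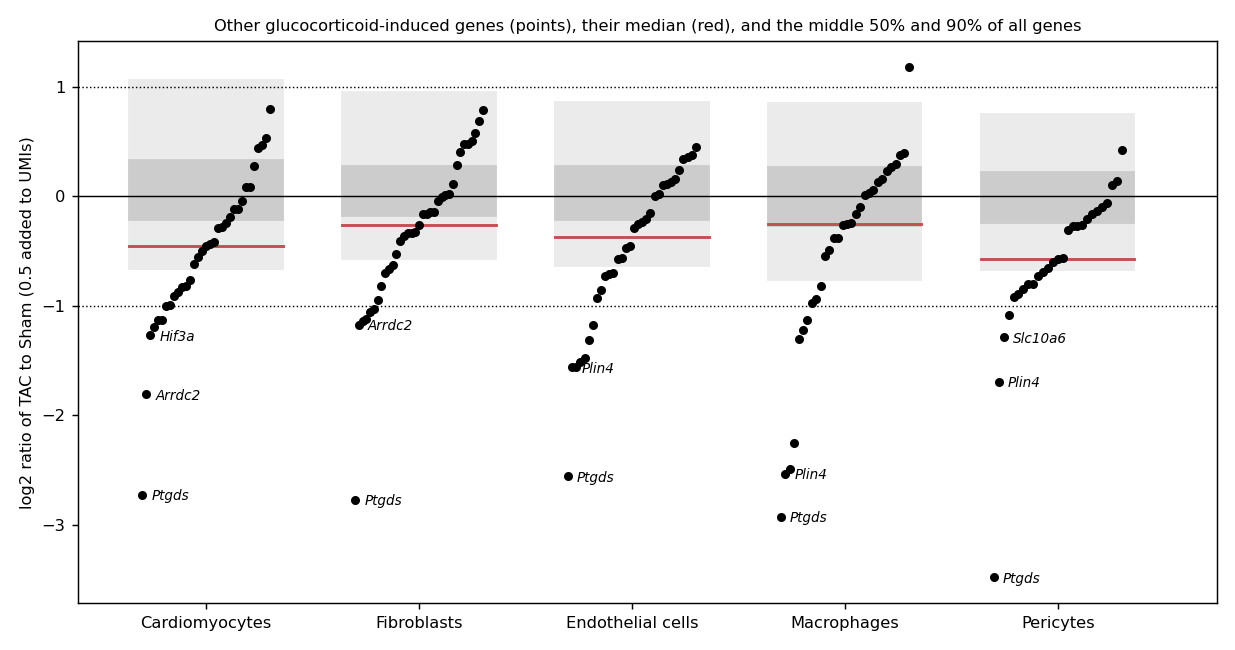
Log2 ratio of TAC to Sham (0.5 added to each UMI count) of the genes of the wider glucocorticoid-induced list that reached 40 UMIs, sorted within each large type, with their median (red line). Grey boxes hold the middle 50% and 90% of all genes tested and dotted lines mark 2-fold; Ptgds lies lowest in each type and the medians lie between -0.57 and -0.26.

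Clock genes and immediate-early genes, which respond within minutes to handling of cells, were counted beside them. Of the clock list, none of 19 that passed in cardiomyocytes and of 17 in fibroblasts was past 2-fold, while 1 of 15 was lower and 1 higher in endothelial cells, 2 of 12 lower in macrophages and 1 of 14 lower in pericytes. These were Per1 (lower) and Dbp (higher, 2.13) in endothelial cells, Per2 (0.410) and Tef in macrophages, and Nr1d1 (0.478) in pericytes. Of all genes, 1.05% were lower by this fold in endothelial cells, 2.12% in macrophages and 1.25% in pericytes, and 3.74% were higher in endothelial cells. The median log2 ratio of the list was -0.22 in cardiomyocytes, -0.05 in fibroblasts, 0.04 in endothelial cells, -0.69 in macrophages and -0.10 in pericytes. Per1, a clock gene that glucocorticoids also induce and that stands in both lists, had a ratio of 0.402 (0.331 to 0.486) in endothelial cells, 0.509 (0.429 to 0.603) in macrophages and 0.730 (0.648 to 0.823) in cardiomyocytes. Tef, a clock output factor, stood at 0.511 (0.471 to 0.553) in cardiomyocytes and 0.464 (0.354 to 0.603) in macrophages. Of the immediate-early list, 5 of 11 that passed were at least 2 times higher in TAC fibroblasts, namely Fos (2.51), Junb (2.16), Ier3 (2.46), Nr4a1 (2.79) and Socs3 (2.41), and none of 10 was past 2-fold in cardiomyocytes. Fosb was lower and Nr4a1 higher in endothelial cells, Ier3 higher in macrophages and Fosb lower in pericytes. Of all genes, 4.47% were at least 2 times higher in fibroblasts and 3.38% in macrophages. The medians of the immediate-early list were 0.34 in cardiomyocytes, 0.79 in fibroblasts, -0.09 in endothelial cells and pericytes, and 0.18 in macrophages. The part of either list in the differences of the 9 genes was not tested.

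The genes whose pattern over the 5 large types of both libraries was most like each member were found by Pearson correlation over these 10 points, among 15459 genes. The points share libraries and depth, so r is a description. Most like Zbtb16 were the mitochondrial transfer RNA genes mt-Tn (r = 0.925) and mt-Ta (0.910) and the Golgi gene Golgb1 (0.909), and most like Fkbp5 were Ubp1 (0.976), Gm49839 (0.969) and Mycbp2 (0.964). Nr3c1 was nearest to Mcm9 (0.994), Mpp1 (0.992) and Mob1a (0.992), and Nr3c2 to Zfp697 (0.979), Rarb (0.970) and Filip1 (0.966). Hsd11b1 was nearest to Gm43921 (0.996), Galnt16 (0.984) and Entpd2 (0.983), and Sgk1 to Ccny (0.994), Plgrkt (0.993) and Rnf220 (0.989). Tsc22d3 was nearest to Zfp81 (0.974), Pisd-ps2 (0.968) and Ago4 (0.966), Klf9 to Togaram1 (0.978), Eif2b2 (0.976) and Pkd1 (0.975), and Klf15 to Inha (0.973), Satb1 (0.973) and Kremen1 (0.971). No member was among the 3 nearest genes of another, and Zbtb16 had the lowest r to its nearest gene.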

How the data were processed

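Single-cell RNA sequencing of mouse heart gave 2 matrices. Cell Ranger 7.1.0, named in the matrix header and the submitters' processing notes, was run by the authors, and its UMI counts for each gene in each barcode were deposited raw. The genome build, the annotation and the filter on barcodes are not given in the sources used here. Of 55357 gene identifiers, 52081 (94.1%) are in GENCODE M21, which gave positions; promoter windows came from RefSeq on GRCm38.p6.

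The counts were analysed with scanpy 1.11.5, anndata 0.12.19, igraph 0.11.9, numpy 2.4.6, scipy 1.17.1, pandas 2.3.3 and Python 3.11.15, and figures were drawn with matplotlib 3.10.9. Barcodes with fewer than 200 detected genes and doublets called by Scrublet (459 Sham, 479 TAC) were removed. Each library was clustered by itself (2000 variable genes, 30 principal components, 15 neighbours, resolution 1, seed 1) without the 9 genes, the listed genes and mitochondrial genes. Names needed 3 or more marker genes in a cluster, and clusters were left unnamed where at least 3 cell-cycle genes were among the top 10 genes, which held for 48 Sham cells.

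UMIs were summed per cell type and given per 1000000. A call needed 40 UMIs over both libraries and a 2-fold difference with 0.5 added to each count. Where no UMI was seen, 3 counts served as the upper limit. Shares were taken after thinning each cell to 1000 UMIs, leaving out shallower cells. The scripts were tested on simulated data. Named genes were the 9 members and, for each list and type, at most 4 with 40 UMIs and the largest absolute log2 ratio. Errfi1, Junb, the Cyp11 genes, the 6 genes that checked the label, and the free RNA shares of Ptgds, Pdk4, Plin4 and Trim63 were added after their values were seen. Genes with at least 100 UMIs entered the search for like patterns. The members and lists were chosen with earlier results of these data known. With 1 library a group there was no test. Alternatives for filters, clustering, cell naming, scaling, weighting and thinning were tried, and free RNA subtraction (by the summed markers and by the highest single marker) and the values within joint clusters were added after seeing the data.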

Additional observations from a re-analysis of the deposited data

Results flagged for a closer look

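Nr3c2, the mineralocorticoid receptor gene, differed in direction between cell types. Its ratio of TAC to Sham was 1.22 in lymphatic endothelial cells, with the counting interval above 1, and 0.878 in cardiomyocytes, 0.893 in fibroblasts and 0.640 in macrophages, with the intervals below 1. The difference between the cell types was not tested, since each group has 1 library.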

How the results depend on the processing

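Counts of the 9 genes past the fold changed with some settings. At a fold of 1.5, 2 genes were lower in TAC fibroblasts in place of 1, 4 in macrophages in place of 2, and 3 in pericytes in place of 2. Pericytes also had 3 with each cell weighted equally, and macrophages 3 with a minimum of 10 UMIs or in thinned cells. Endothelial cells had 2 lower in place of 3 with a minimum of 100 UMIs, in thinned cells, with cells typed by their own markers, and with no doublets removed. With a minimum of 10 UMIs, 1 gene (Hsd11b1, from 9 and 26 UMIs) was higher in TAC endothelial cells in place of 0. The share of all genes past the fold at these settings is not given here, so nothing is read from these counts. Under the 13 alternatives for filters, clustering, naming of cells, scaling, weighting and depth, 568 ratios stayed within the counting interval of the reported value and 17 moved beyond it. The ratio of Zbtb16 ranged over them from 0.179 in macrophages to 0.419 in cardiomyocytes and that of Fkbp5 from 0.318 in cardiomyocytes to 0.579 in fibroblasts. Nr3c1 in endothelial cells ranged from 0.990 to 1.08, and Tsc22d3 in cardiomyocytes from 0.878 to 1.19, both across 1. Shares of cells with a UMI depend on the depth to which cells are thinned, and 77 to 84 of 90 moved at other depths. With cardiomyocyte RNA subtracted at the highest marker, added after seeing the data, Nr3c2 had 1.08 in endothelial cells, 0.485 in macrophages and 1.14 in pericytes. No paired analysis was possible because each group is 1 library. Depth limits Klf15 and Hsd11b1 in endothelial cells and macrophages, which rest on 50 UMIs or fewer.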
